A study of Mus musculus with 9 samples.

Results

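The genes described here encode heat shock proteins of the cytosol and the cochaperones that work with them. They are the inducible HSP70 genes Hspa1a and Hspa1b, Hsph1, Hspa8, the HSP90 genes Hsp90aa1 and Hsp90ab1, Dnajb1, Hspb1, the heat shock factor Hsf1 and Bag2. Members were all probe sets whose only gene symbol in the platform annotation is 1 of these 10 genes. This gave 11 probe sets for 8 genes, of 12422 probe sets in all. No probe set carries the symbol Hsp90ab1 or Hsf1 in that annotation, so no value is given for either. Of the 11 probe sets, 8 from 7 genes passed the filter on low signals and were among the 7898 tested.

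The arrays measured RNA from both ventricles of female mice aged 3 months, with 1 mouse per array and 3 mice in each of 3 groups. In IGF1R-caPI3K mice, a transgene that overexpresses the insulin-like growth factor 1 receptor (IGF1R) was combined with one for a constitutively active p110 subunit of the lipid kinase PI3K. In IGF1R-dnPI3K mice it was combined with one for dominant negative p110. IGF1R mice carried the receptor transgene alone. All 9 mice thus overexpressed the receptor. Mice that carried only a PI3K transgene, or none, were not used here, and nothing is set against a heart without transgenes. The sources used here do not name the promoters of the transgenes.

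HSP70 proteins bind unfolded stretches of other proteins and release them in a cycle of ATP hydrolysis. J-domain proteins such as Dnajb1 bring clients to HSP70 and speed the hydrolysis, while nucleotide exchange factors such as Hsph1 and Bag2 let the client go, and HSP90 takes over partly folded clients, among them many kinases and steroid receptors. Under stress HSF1 binds heat shock elements, which are inverted repeats of GAA, and raises the inducible genes, while Hspa8 and Hsp90ab1 are made in unstressed cells too. In the heart, inducible HSP70 is known for its rise after heat and ischaemia.

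The promoters of the HSP70 genes and of Hsph1, which passed the same comparison below, are shown with that of Bag2, which did not pass it. Each runs 5′ to 3′ from 250 bases before to 50 bases after a transcription start, from RefSeq (GRCm38.p6). Capitals mark matches to GAANNTTC or TTCNNGAA, each of which is a pair of adjacent repeats of the heat shock element and reads the same on both strands. Overlapping matches are merged into 1 run.
Hspa1a, chr17:34972107-34972406, minus strand: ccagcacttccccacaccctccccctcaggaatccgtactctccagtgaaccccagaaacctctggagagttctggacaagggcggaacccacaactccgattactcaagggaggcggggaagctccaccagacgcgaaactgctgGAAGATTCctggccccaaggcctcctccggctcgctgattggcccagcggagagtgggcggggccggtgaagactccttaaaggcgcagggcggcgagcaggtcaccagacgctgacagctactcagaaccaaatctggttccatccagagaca
Hspa1b, chr17:34959189-34959488, minus strand: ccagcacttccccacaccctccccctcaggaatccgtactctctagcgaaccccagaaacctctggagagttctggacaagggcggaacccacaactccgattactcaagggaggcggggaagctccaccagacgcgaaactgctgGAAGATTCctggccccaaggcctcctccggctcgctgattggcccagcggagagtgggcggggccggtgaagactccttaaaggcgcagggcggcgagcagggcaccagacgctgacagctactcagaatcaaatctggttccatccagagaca
Hsph1, chr5:149636266-149636565, minus strand: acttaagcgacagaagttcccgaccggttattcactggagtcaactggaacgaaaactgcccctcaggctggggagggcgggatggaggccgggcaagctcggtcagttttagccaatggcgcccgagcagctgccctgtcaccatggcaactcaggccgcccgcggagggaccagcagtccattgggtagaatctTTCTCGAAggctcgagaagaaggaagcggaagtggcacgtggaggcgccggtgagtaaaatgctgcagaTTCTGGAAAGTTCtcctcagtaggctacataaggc
Bag2, chr1:33757701-33758000, minus strand: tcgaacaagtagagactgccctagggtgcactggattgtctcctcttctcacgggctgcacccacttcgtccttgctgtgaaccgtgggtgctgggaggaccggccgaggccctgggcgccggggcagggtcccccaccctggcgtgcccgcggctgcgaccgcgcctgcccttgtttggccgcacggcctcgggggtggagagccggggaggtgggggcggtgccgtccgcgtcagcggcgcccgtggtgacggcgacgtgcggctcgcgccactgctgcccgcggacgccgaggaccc
The Hspa1a and Hspa1b windows differ at 4 of 300 bases, and each holds 1 match that begins 104 bases before the start. The Hsph1 window holds a match that begins 54 bases before the start and a run of 13 bases that begins at base 16 after it and has 3 adjacent repeats (TTCNNGAANNTTC). From another RefSeq start of Hsph1, whose window is not shown, the same matches begin 33 bases before it and at base 37 after it. The Bag2 window holds no match. Among all 32851 RefSeq windows of this length, 15.1% hold at least 1 such match and 0.603% hold 3 adjacent repeats (TTCNNGAANNTTC or GAANNTTCNNGAA). Windows were found for 6 of the 10 members, also for Hspb1, which holds matches, and Dnajb1, which holds none. A match describes these letters only.

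Some control ratios differed between the groups. For the CreX control, 3′ signal over 5′ signal was 1.74 to 1.89 on IGF1R-caPI3K arrays, 1.79 to 1.83 on IGF1R-dnPI3K arrays and 1.05 to 1.26 on IGF1R arrays. That of Gapdh, from the sample's own RNA, was 0.843 to 0.873 on IGF1R-caPI3K arrays, 0.844 to 0.943 on IGF1R-dnPI3K arrays and 0.747 to 0.818 on IGF1R arrays. The ratios of the actin, PyruCarb, BioB and TransRec controls did not set the IGF1R arrays apart from both other groups. That of PyruCarb was highest on IGF1R-dnPI3K replicate 3, at 3.25. IGF1R-dnPI3K replicate 3 stood apart, with a mean correlation to the other arrays across probe sets of 0.954, against 0.969 to 0.973 for the rest. Cardiomyocyte markers were present on every array, with summed signals of 170166 to 177564 on IGF1R-caPI3K arrays, 184237 to 218035 on IGF1R-dnPI3K arrays and 161863 to 174222 on IGF1R arrays. Signals below are the deposited linear intensities, in arbitrary units, and differences are in log2 units, with limma p-values adjusted by Benjamini-Hochberg over all probe sets tested and a threshold of 0.05. Calls that were lost or gained when 1 array was left out are named beside each member.

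Hspa1a, an inducible HSP70, differed most between the groups of all the members tested. Its signal was 703, 624 and 2146 on the IGF1R-caPI3K arrays, 214, 125 and 194 on the IGF1R-dnPI3K arrays and 389, 481 and 294 on the IGF1R arrays. The groups did not overlap and were in the order IGF1R-caPI3K, IGF1R, IGF1R-dnPI3K, with IGF1R-caPI3K replicate 3 far above its group. Hspa1a was 5.66-fold higher in IGF1R-caPI3K than in IGF1R-dnPI3K mice, a difference of 2.50 ± 0.41 (SE, n = 3 each, limma adjusted p = 0.0188). Without IGF1R-caPI3K replicate 3 the difference was 1.94 (adjusted p = 0.025), and the call was lost without IGF1R-caPI3K replicate 1 (2.74, adjusted p = 0.0611) or IGF1R-dnPI3K replicate 2 (2.27, adjusted p = 0.0823). Against IGF1R mice Hspa1a did not pass in either group: the difference was 1.37 ± 0.41 for IGF1R-caPI3K (adjusted p = 0.128) and -1.14 ± 0.41 for IGF1R-dnPI3K mice (adjusted p = 0.0851). Without IGF1R-caPI3K replicate 3 the first was 0.80 (adjusted p = 0.26) and the second passed at the same size (adjusted p = 0.03).

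Hspa1b encodes nearly the same protein as Hspa1a, and their probe sets may read both transcripts, so the 2 are not independent measurements. The Hspa1b signal was 695, 561 and 1672 on the IGF1R-caPI3K arrays, 307, 177 and 115 on the IGF1R-dnPI3K arrays and 377, 633 and 253 on the IGF1R arrays. The IGF1R arrays overlapped both other groups, which did not overlap each other. Hspa1b was higher in IGF1R-caPI3K than in IGF1R-dnPI3K mice by 2.23 ± 0.46 (limma adjusted p = 0.0473). The call was lost without any 1 array other than IGF1R-dnPI3K replicate 1 (differences of 1.76 to 2.55, adjusted p = 0.0567 to 0.164). The difference from IGF1R mice was 1.15 ± 0.46 in IGF1R-caPI3K mice (adjusted p = 0.228) and -1.09 ± 0.46 in IGF1R-dnPI3K mice (adjusted p = 0.134). The second passed without IGF1R-dnPI3K replicate 1, at -1.46 (adjusted p = 0.0476).

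Hsph1, an HSP110 protein, showed the same order of group means. Its signal was 1759, 1513 and 2419 on the IGF1R-caPI3K arrays, 1093, 714 and 689 on the IGF1R-dnPI3K arrays and 1156, 1565 and 1275 on the IGF1R arrays. The IGF1R-dnPI3K arrays lay below all others, and the IGF1R-caPI3K and IGF1R arrays overlapped. Hsph1 was 2.29-fold higher in IGF1R-caPI3K than in IGF1R-dnPI3K mice, by 1.19 ± 0.22 (limma adjusted p = 0.0287). That call was lost without IGF1R replicate 3, any 1 IGF1R-caPI3K array, IGF1R-dnPI3K replicate 2 or IGF1R-dnPI3K replicate 3 (differences of 1.00 to 1.34, adjusted p = 0.0554 to 0.104). The IGF1R-dnPI3K minus IGF1R difference of -0.70 ± 0.22 missed the threshold (adjusted p = 0.0549) and passed without IGF1R-dnPI3K replicate 1, at -0.91 (adjusted p = 0.0104). IGF1R-caPI3K minus IGF1R was 0.49 ± 0.22 (adjusted p = 0.259).

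**Figure D1:**
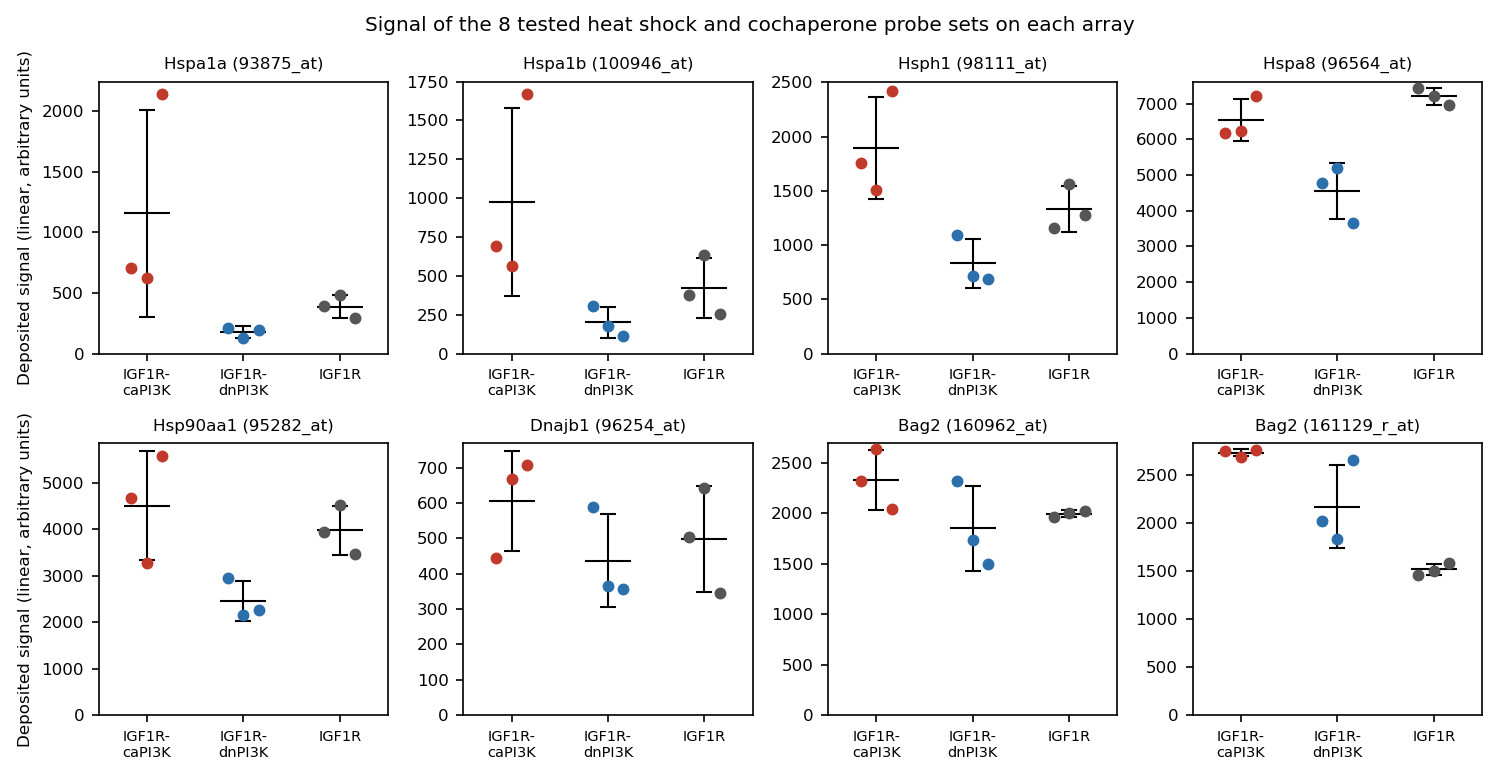
Deposited signal (vertical axes, linear, arbitrary units, starting at 0) of the 8 tested probe sets, with 1 point per array and bars for the mean ± SD of 3 arrays. Hspa1a, Hspa1b and Hsph1 have their highest mean in IGF1R-caPI3K and their lowest in IGF1R-dnPI3K mice, Hspa8 and Hsp90aa1 are lowest in IGF1R-dnPI3K mice, and Bag2 161129_r_at is lowest in IGF1R mice.

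Hspa8, the constitutive HSP70, was lowest in IGF1R-dnPI3K mice. Its signal was 6167, 6236 and 7219 on the IGF1R-caPI3K arrays, 4789.7, 5185 and 3663 on the IGF1R-dnPI3K arrays and 7426, 7214 and 6969 on the IGF1R arrays. The IGF1R-dnPI3K arrays lay below the other 6, which overlapped. Hspa8 fell in IGF1R-dnPI3K against IGF1R mice, by 0.68 ± 0.13 in log2 units (SE, n = 3 each, limma adjusted p = 0.0162), to 0.625 of the IGF1R level. The call was lost without any 1 IGF1R array (differences of -0.70 to -0.66, adjusted p = 0.0515 to 0.061). IGF1R-caPI3K minus IGF1R-dnPI3K was 0.54 ± 0.13 (adjusted p = 0.0868) and passed without IGF1R-dnPI3K replicate 1, at 0.58 (adjusted p = 0.0415). IGF1R-caPI3K minus IGF1R was -0.14, with a 95% interval of -0.44 to 0.15.

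Hsp90aa1, the inducible cytosolic HSP90, had the same order of overlap as Hspa8. Its signal was 4667, 3264 and 5578 on the IGF1R-caPI3K arrays, 2946, 2159.7 and 2249.7 on the IGF1R-dnPI3K arrays and 3935, 4516 and 3459 on the IGF1R arrays. Again the IGF1R-dnPI3K arrays lay below the other 6, which overlapped. Hsp90aa1 fell in IGF1R-dnPI3K against IGF1R mice, by 0.70 ± 0.20 on the log2 scale (limma adjusted p = 0.041). The call was lost without any 1 IGF1R array, IGF1R-caPI3K replicate 1, IGF1R-dnPI3K replicate 2 or IGF1R-dnPI3K replicate 3 (differences of -0.80 to -0.60, adjusted p = 0.0603 to 0.124). IGF1R-caPI3K minus IGF1R-dnPI3K was 0.86 ± 0.20 (adjusted p = 0.0679) and passed without IGF1R-dnPI3K replicate 1, at 1.00 (adjusted p = 0.0184). IGF1R-caPI3K minus IGF1R was 0.16, with a 95% interval of -0.28 to 0.59. A dimmer Hsp90aa1 probe set, 161869_i_at, had signals of 69.3, 53.9 and 42.6 on the IGF1R-caPI3K arrays, 41.5, 78.1 and 26.1 on the IGF1R-dnPI3K arrays and 17.4, 62.8 and 71.0 on the IGF1R arrays and was not tested.

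Dnajb1, the J-domain partner of inducible HSP70, passed in none of the 3 comparisons. Its signal was 444, 667 and 707 on the IGF1R-caPI3K arrays, 589, 364 and 358 on the IGF1R-dnPI3K arrays and 504, 644 and 345 on the IGF1R arrays. All groups overlapped. The 95% interval of the difference was -0.12 to 1.09 for IGF1R-caPI3K minus IGF1R-dnPI3K, -0.30 to 0.90 for IGF1R-caPI3K minus IGF1R and -0.78 to 0.42 for IGF1R-dnPI3K minus IGF1R.

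Bag2, an exchange factor of HSP70 that inhibits the ubiquitin ligase Stub1, was read by 3 probe sets with different patterns. Probe set 161129_r_at had signals of 2754, 2697 and 2761 on the IGF1R-caPI3K arrays, 2025, 1841 and 2661 on the IGF1R-dnPI3K arrays and 1464, 1506 and 1585 on the IGF1R arrays. The IGF1R arrays were the lowest here, and no groups overlapped. It rose against IGF1R mice by 0.85 ± 0.13 in IGF1R-caPI3K (limma adjusted p = 0.0464) and by 0.50 ± 0.13 in IGF1R-dnPI3K mice (adjusted p = 0.035). The first call was lost without any 1 of the 6 arrays compared (differences of 0.83 to 0.88, adjusted p = 0.12 to 0.169). The second was lost without any 1 IGF1R or IGF1R-caPI3K array (differences of 0.48 to 0.53, adjusted p = 0.0563 to 0.0979). IGF1R-caPI3K minus IGF1R-dnPI3K was 0.35 ± 0.13 (adjusted p = 0.252) and passed without IGF1R-dnPI3K replicate 3, at 0.50 (adjusted p = 0.045). The CreX and Gapdh ratios separate the IGF1R arrays from the others too, and their part in these differences was not tested.

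Bag2 probe set 160962_at did not pass in any comparison. Its signal was 2323, 2636 and 2040.1 on the IGF1R-caPI3K arrays, 2314, 1737 and 1499.5 on the IGF1R-dnPI3K arrays and 1959.9, 2002 and 2025 on the IGF1R arrays. The IGF1R-caPI3K arrays lay narrowly above the IGF1R arrays, and the IGF1R-dnPI3K arrays overlapped both. Its differences were 0.22 ± 0.16 for IGF1R-caPI3K minus IGF1R (limma adjusted p = 0.489), -0.13 ± 0.16 for IGF1R-dnPI3K minus IGF1R (adjusted p = 0.593) and 0.35 ± 0.16 for IGF1R-caPI3K minus IGF1R-dnPI3K (adjusted p = 0.32). The last passed without IGF1R-dnPI3K replicate 1, at 0.52 (adjusted p = 0.0395). The third probe set, 162270_r_at, was dim, with signals of 65.0, 49.4 and 55.0 on the IGF1R-caPI3K arrays, 85.2, 85.5 and 137 on the IGF1R-dnPI3K arrays and 64.7, 37.5 and 24.2 on the IGF1R arrays, and was not tested. The change of Bag2 against IGF1R mice was thus seen on 1 of its 2 tested probe sets.

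Hspb1, a small heat shock protein that holds unfolded clients without ATP, was near background on its probe set, 92853_at. Whether that probe set detects the transcript well was not tested. Its signal was 56.9, 80.2 and 27.3 on the IGF1R-caPI3K arrays, 43.5, 10.6 and 102 on the IGF1R-dnPI3K arrays and 33.2, 15.4 and 17.4 on the IGF1R arrays. Probe sets of Y-linked genes, which show background in female mice, reached 63.9. Only IGF1R-caPI3K replicate 2 and IGF1R-dnPI3K replicate 3 lay above that value, so no order of the groups is read from Hspb1, and it was not tested.

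Of the 8 tested probe sets, 1 passed in IGF1R-caPI3K against IGF1R mice and was higher, where 0.215% of all tested probe sets passed. At an unadjusted p under 0.05 there were 4 of 8, against 18.4% of all. In IGF1R-dnPI3K against IGF1R mice 2 passed as lower and 1 as higher, where 13.5% of all passed. There 6 of 8 had an unadjusted p under 0.05, against 32.2% of all. In IGF1R-caPI3K against IGF1R-dnPI3K mice 3 passed, all higher, where 1.24% of all passed, and 7 of 8 had an unadjusted p under 0.05, against 15.4% of all. The groups did not overlap for 3 of 8 in IGF1R-caPI3K against IGF1R mice (32.8% of all), 5 of 8 in IGF1R-dnPI3K against IGF1R mice (34.4% of all) and 6 of 8 in IGF1R-caPI3K against IGF1R-dnPI3K mice (19.5% of all). The median log2 difference of the 8 was 0.40 for IGF1R-caPI3K minus IGF1R, -0.69 for IGF1R-dnPI3K minus IGF1R and 0.70 for IGF1R-caPI3K minus IGF1R-dnPI3K, against -0.04, -0.09 and 0.05 over all tested probe sets. With arrays scaled to a common median, the fall of Hsp90aa1 in IGF1R-dnPI3K against IGF1R mice (-0.53, adjusted p = 0.0958) and the rise of Bag2 161129_r_at in IGF1R-caPI3K against IGF1R mice (0.95, adjusted p = 0.0505) no longer passed, and the other 5 calls did. The comparisons share arrays, so these counts are not independent. The probe sets of Hspa1a and Hspa1b may also share targets, and those of Bag2 carry the same symbol. The members and the lists read below were also chosen with earlier results of these data known. Their shares of calls against those of all probe sets are therefore a description and no test. In fits of only the 2 groups compared, which use their own spread, 1 of the 8 passed in IGF1R-caPI3K against IGF1R mice. None of the 8 passed in the comparisons with IGF1R-dnPI3K mice in those fits. With the leading digits of the numbers in the sample titles as a block, none of the 8 passed in any comparison. The labels do not say what these numbers stand for, so they may not mark a batch. That fit sets IGF1R-dnPI3K mice against the others through replicate 1 alone, because its replicates 2 and 3 share their leading digits with no mouse of another group.

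**Figure D2:**
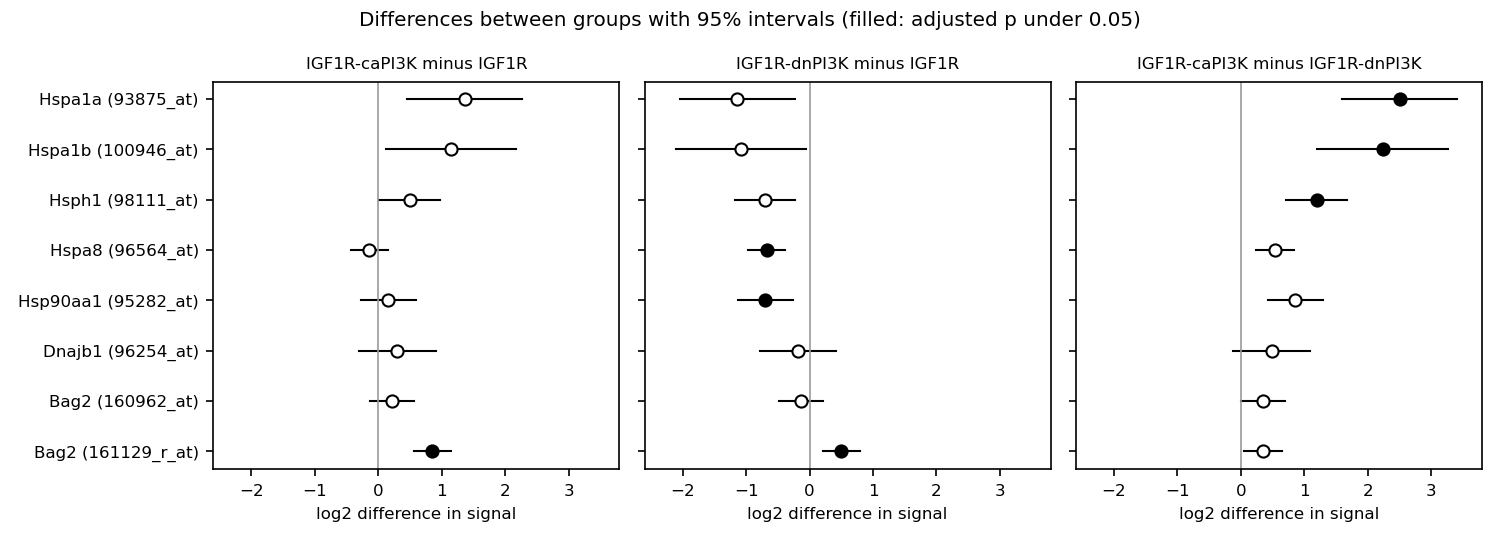
Log2 difference in signal (horizontal axis) of the 8 tested probe sets in the 3 comparisons, with 95% intervals from the limma fit over 9 arrays; filled points passed at an adjusted p under 0.05. These are Bag2 161129_r_at against IGF1R mice in both comparisons, Hspa8 and Hsp90aa1 in IGF1R-dnPI3K minus IGF1R, and Hspa1a, Hspa1b and Hsph1 in IGF1R-caPI3K minus IGF1R-dnPI3K.

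Within each group, the array with the most Hspa1a signal also had the most Hspa1b, Hsph1, Hsp90aa1 and Dnajb1. On IGF1R-caPI3K replicate 3, log2 signal exceeded the group mean by 1.13 for Hspa1a, 0.95 for Hspa1b, 0.38 for Hsph1, 0.34 for Hsp90aa1 and 0.25 for Dnajb1. On IGF1R-dnPI3K replicate 1 it exceeded the group mean by 0.31 for Hspa1a, 0.74 for Hspa1b, 0.43 for Hsph1, 0.28 for Hsp90aa1 and 0.47 for Dnajb1. On IGF1R replicate 2 it did so by 0.34 for Hspa1a, 0.69 for Hspa1b, 0.24 for Hsph1, 0.19 for Hsp90aa1 and 0.42 for Dnajb1. Hspa8 peaked on replicate 3 of IGF1R-caPI3K, on replicate 2 of IGF1R-dnPI3K and on replicate 1 of IGF1R mice, and so shared that array in 1 of the 3 groups. This order was noticed in the values and is a description, with no test. How often all tested probe sets peak on these 3 arrays was not counted. IGF1R-dnPI3K replicate 1 also had the highest summed signal of its group for fibroblast (32675), macrophage (6366) and smooth muscle markers (3594, of which Acta2 gave 2147). Its sums of cardiomyocyte and endothelial markers were not the highest. On IGF1R-caPI3K replicate 3 the macrophage (7369) and smooth muscle sums (1960) were the lowest of the group, and the fibroblast sum (39870) was not the highest. On IGF1R replicate 2 the macrophage (7590) and smooth muscle sums (2295) were the highest of the group, and the fibroblast sum (36200) was the lowest.

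**Figure D3:**
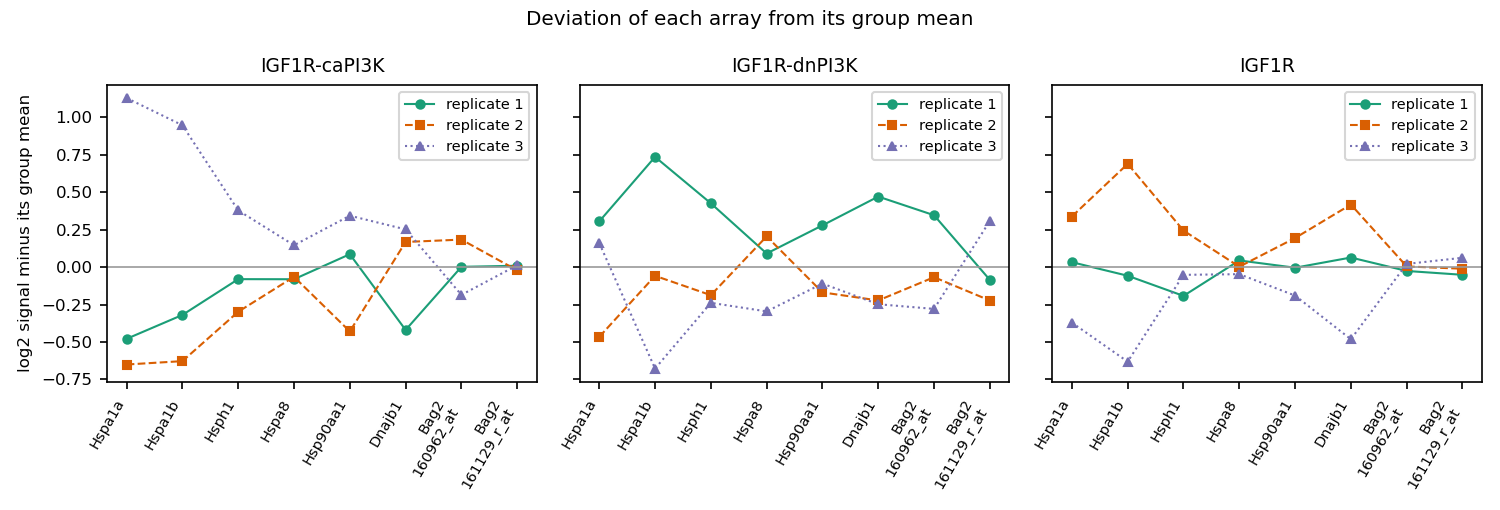
Log2 signal of each array minus the mean of its group (vertical axis) for the 8 tested probe sets (horizontal axis), with 1 line per array and 1 panel per group. The arrays of IGF1R-caPI3K replicate 3, of IGF1R-dnPI3K replicate 1 and of IGF1R replicate 2 lie highest in their groups for Hspa1a, Hspa1b, Hsph1, Hsp90aa1 and Dnajb1.

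Immediate early genes, which rise within minutes of many stimuli, were read for the same order of arrays. Of their 12 tested probe sets, 1 was highest in its group on IGF1R-caPI3K replicate 3, 7 on IGF1R-dnPI3K replicate 1 and 2 on IGF1R replicate 2. None was highest on all 3 of these arrays, and those of Fosb and Ier3, named after their values were seen, were highest on 2 of them. None of the 12 passed in IGF1R-caPI3K against IGF1R mice (0.215% of all tested probe sets) or against IGF1R-dnPI3K mice (1.24% of all). In IGF1R-dnPI3K against IGF1R mice, where 13.5% of all passed, Ier2 fell by 0.64 ± 0.16 on the log2 scale (limma adjusted p = 0.0299). That call was lost without any 1 IGF1R array, IGF1R-dnPI3K replicate 2 or IGF1R-dnPI3K replicate 3 (adjusted p = 0.0661 to 0.0972), with a common median (adjusted p = 0.0633) and with quantile normalization (adjusted p = 0.0519). The summed signal of the list was 11611 to 14347 on IGF1R-caPI3K arrays, 10439 to 11162 on IGF1R-dnPI3K arrays and 11759 to 13570 on IGF1R arrays.

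Markers of other cell types moved with the comparisons, and their part in the differences of the members was not tested. Fibroblast markers had a summed signal of 39624 to 43918 on IGF1R-caPI3K arrays, 27348 to 32675 on IGF1R-dnPI3K arrays and 36200 to 39793 on IGF1R arrays. Of their 15 tested probe sets, 4 were higher and none was lower in IGF1R-caPI3K than in IGF1R-dnPI3K mice. Against IGF1R mice, IGF1R-dnPI3K mice had 7 lower and 2 higher. Macrophage markers summed to 7369 to 7848 on IGF1R-caPI3K arrays, 4218 to 6366 on IGF1R-dnPI3K arrays and 6805 to 7590 on IGF1R arrays, and 3 of 9 were lower in IGF1R-dnPI3K than in IGF1R mice. Endothelial markers summed to 9707 to 11114 on IGF1R-caPI3K arrays, 10569 to 12228 on IGF1R-dnPI3K arrays and 11530 to 12953 on IGF1R arrays. Of their 10 tested probe sets, 2 were lower (Kdr, by 1.17 ± 0.25, and Pecam1, by 0.73 ± 0.21) and 1 was higher (Vwf, by 0.63 ± 0.16) in IGF1R-dnPI3K mice than in IGF1R mice, and none passed in the other comparisons. Of 9 tested probe sets of cardiomyocyte markers, 3 (Myh6, Myl2 and Myl3) were higher in IGF1R-dnPI3K mice than in IGF1R mice. Ryr2 was lower than in IGF1R mice by 0.70 ± 0.11 in IGF1R-caPI3K and by 0.55 ± 0.11 in IGF1R-dnPI3K mice. Smooth muscle markers summed to 1960 to 2065 on IGF1R-caPI3K arrays, 2646 to 3594 on IGF1R-dnPI3K arrays and 2088 to 2295 on IGF1R arrays. None of their 4 tested probe sets passed in any comparison. Of all tested probe sets, 0.215% passed in IGF1R-caPI3K against IGF1R and 13.5% in IGF1R-dnPI3K against IGF1R mice. In IGF1R-caPI3K against IGF1R-dnPI3K mice 1.24% of all passed. In RNA of whole ventricles, fewer cells of a type and less RNA per cell cannot be told apart.

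Other chaperones and cochaperones from outside the mitochondria, most of them cytosolic, were read from 7 lists of 69 genes, of which 49 were tested on 71 probe sets. None of these passed in IGF1R-caPI3K against IGF1R mice, where only 0.215% of all tested probe sets did. In IGF1R-dnPI3K against IGF1R mice 10 fell and 5 rose, or 14.1% and 7.04%, against 7.8% and 5.7% of all tested probe sets. This balance depended on the scaling. With quantile normalization 9 fell and 5 rose, where 6.46% and 6.23% of all tested probe sets did. With arrays scaled to a common median 3 fell and 6 rose, where 4.22% and 10.5% of all tested probe sets did. Hspa1l, Hspa4, Dnaja1, Dnajb3, Dnajc3, Fkbp4 and Cct3 lost their call there, while Ppid, Sugt1 and Cct8 and all 5 that rose kept it. In IGF1R-caPI3K against IGF1R-dnPI3K mice 2 were higher and none was lower, where 0.734% and 0.506% of all tested probe sets were. The median log2 difference of the 71 was -0.19 in IGF1R-dnPI3K minus IGF1R and 0.13 in IGF1R-caPI3K minus IGF1R-dnPI3K. Over all tested probe sets it was -0.09 and 0.05. Each of these 17 calls was lost without at least 1 of the 9 arrays.

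Among other HSP70 and HSP110 genes, Hspa1l was higher in IGF1R-caPI3K than in IGF1R-dnPI3K mice, by 1.00 ± 0.16 (limma adjusted p = 0.018). Its signal was 621 ± 57.2 in IGF1R-caPI3K, 310.4 ± 26.7 in IGF1R-dnPI3K and 466 ± 83.3 in IGF1R mice (SD, n = 3 each). The call was lost without any 1 IGF1R-caPI3K array or IGF1R-dnPI3K replicate 2 (adjusted p = 0.0611 to 0.093). Hspa1l is close in sequence to Hspa1a and lies in the same gene cluster, and whether its probe set reads Hspa1a was not tested. In IGF1R-dnPI3K against IGF1R mice Hspa1l fell by 0.57 ± 0.16 on the log2 scale, and the HSP110 gene Hspa4 fell by 0.65 ± 0.16 on 1 of its 5 tested probe sets.

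Among J-domain genes, Dnajb4 was higher in IGF1R-caPI3K than in IGF1R-dnPI3K mice, by 1.20 ± 0.23 (limma adjusted p = 0.0343). Its signal was 1705 ± 186 in IGF1R-caPI3K, 753 ± 166 in IGF1R-dnPI3K and 1129 ± 331 in IGF1R mice (SD, n = 3 each). The call was lost without IGF1R replicate 3, any 1 IGF1R-caPI3K array, IGF1R-dnPI3K replicate 2 or IGF1R-dnPI3K replicate 3 (adjusted p = 0.0577 to 0.143). In IGF1R-dnPI3K against IGF1R mice Dnaja1, a general partner of Hspa8, fell by 0.70 ± 0.19 on the log2 scale. Dnajc3, of the endoplasmic reticulum, fell there by 0.61 ± 0.18 on 1 of its 2 tested probe sets, and Dnajc8, a J-domain protein of the splicing machinery, rose there by 0.47 ± 0.12 on 1 of its 2. Dnajb3 passed as lower there, with signals of 38.8, 67.4 and 37.8 on the IGF1R-caPI3K arrays, 40.1, 72.0 and 45.8 on the IGF1R-dnPI3K arrays and 138, 139 and 129 on the IGF1R arrays. It was near background outside IGF1R mice, and the size of its difference depended on the floor: with the floor at the 40th percentile it was -0.30 and did not pass (adjusted p = 0.0793). In IGF1R-caPI3K minus IGF1R the probe sets that passed differed by 0.02 for Dnaja1, -0.41 for Dnajc3 and 0.29 for Dnajc8, and none passed there.

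The HSP90 cochaperones that fell in IGF1R-dnPI3K against IGF1R mice were the cyclophilin Ppid (by 0.80 ± 0.14 on the log2 scale), Sugt1 (by 1.20 ± 0.25) and the immunophilin Fkbp4 (by 0.71 ± 0.19). A second probe set of Sugt1 differed by -0.13 and one of Fkbp4 by 0.12, and neither passed. Of the subunits of the cytosolic chaperonin TRiC, Cct8 fell by 0.98 ± 0.19 and Cct3, on 1 of its 3 tested probe sets, by 0.46 ± 0.13 there, while the prefoldin subunit Pfdn2 rose by 0.49 ± 0.11. The HSP70 exchange factor Hspbp1 rose by 0.43 ± 0.12, and the small heat shock protein Hspb2 rose by 0.69 ± 0.17 on 1 of its 2 tested probe sets. Hsbp1, known as a negative regulator of HSF1, rose by 0.53 ± 0.12 (limma adjusted p = 0.0203). In IGF1R-caPI3K minus IGF1R the probe sets that passed differed by -0.34 for Ppid, -0.71 for Sugt1, -0.55 for Fkbp4 and -0.65 for Cct8. The others differed there by 0.0015 for Cct3, 0.34 for Pfdn2, 0.34 for Hspbp1, 0.58 for Hspb2 and 0.36 for Hsbp1. None of these passed there or in IGF1R-caPI3K minus IGF1R-dnPI3K. The CreX and Gapdh ratios also separate the IGF1R arrays from the others, and their part was not tested.

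Of 9 tested probe sets of mitochondrial chaperones, 1 passed in IGF1R-dnPI3K against IGF1R mice, where 13.5% of all tested probe sets did. It was a dim one of Hspd1 that was higher there. Its signal was 159, 117 and 161 on the IGF1R-caPI3K arrays, 115, 175 and 183 on the IGF1R-dnPI3K arrays and 36.6, 63.7 and 40.8 on the IGF1R arrays. The IGF1R arrays lay below the background of 63.9, and the size of this difference depended on the floor: with the floor at the 40th percentile it was 0.49 and did not pass (adjusted p = 0.109). It also lost its call without IGF1R replicate 3 (adjusted p = 0.0599). The brighter Hspd1 probe set, at -0.22 ± 0.17, did not pass.

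**Figure D4:**
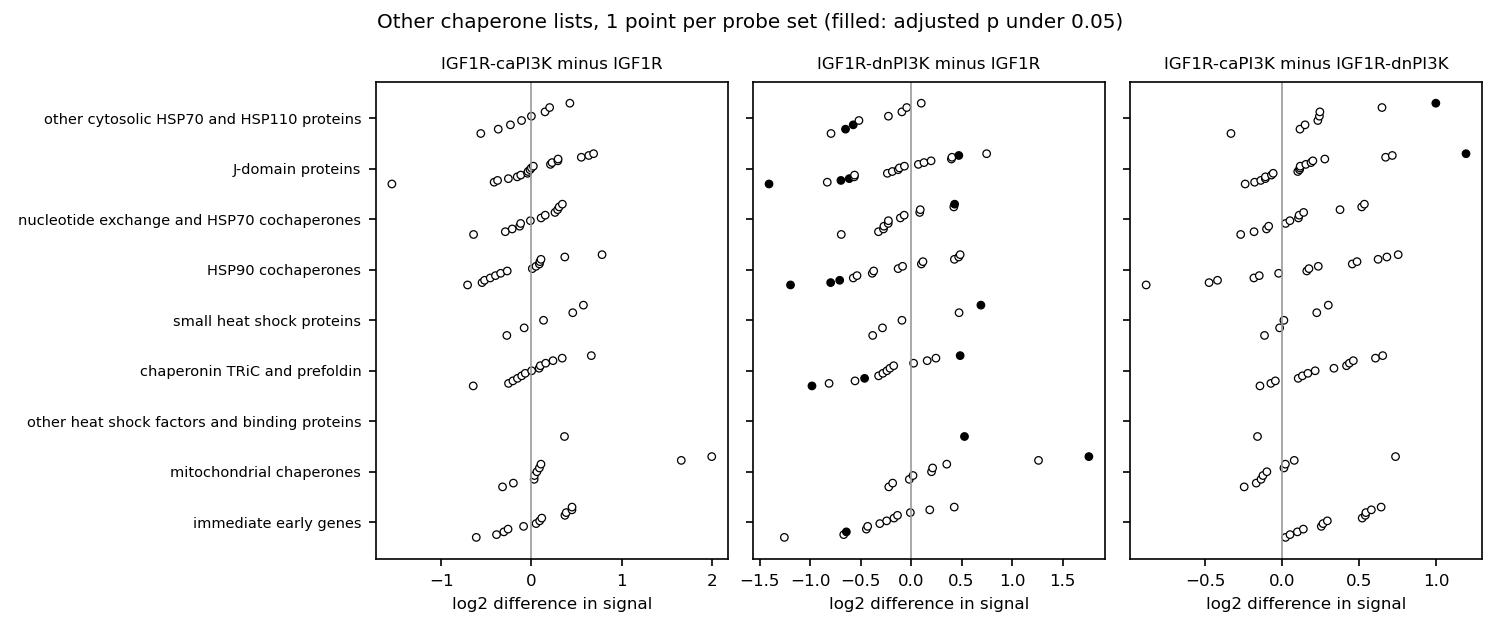
Log2 difference in signal (horizontal axis) of each tested probe set in the lists of other chaperones and of immediate early genes, with 1 panel per comparison; filled points passed at an adjusted p under 0.05. No point is filled in IGF1R-caPI3K minus IGF1R, and Hspa1l and Dnajb4 are filled in IGF1R-caPI3K minus IGF1R-dnPI3K.

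The genes outside the member list whose log2 signal followed a member most closely over the 9 arrays are given with Pearson's r, as a description. Members were left out of this ranking, so how closely they followed each other is not given. Hspa1a was followed by Tpgs2 (0.95), Smim14 (0.95) and Hexa (0.92), and Hspa1b by Shoc2 (0.95), Smim14 (0.91) and Yap1 (0.90). Hsph1 was followed by P4ha1 (0.97), Fam120a (0.94) and Timeless (0.94), and Hspa8 by Mpdz (0.98), Islr (0.97) and H2az1 (0.97). Hsp90aa1 was followed by Cct3 (0.97), Med10 (0.96) and Dnaja1 (0.96), of which Cct3 and Dnaja1 are themselves chaperone genes. Bag2, on probe set 161129_r_at, was followed by Alg3 (0.98), Mea1 (0.98) and Aaas (0.95). These values share the same 9 arrays and 3 groups.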

How the data were processed

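The authors deposited a linear intensity for each of 12488 probe sets, 66 of them controls, on each array. The sources used here do not name the algorithm. The mean without the top and bottom 2% of values was 500.3 to 500.4 on every array. Groups came from the sample titles, and replicates were numbered in deposit order. Symbols came from the platform annotation, in which 10833 probe sets have 1 symbol, 396 have several and 1193 have none.

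Intensities below 32.4, the 20th percentile of those above 0, were set to that value before log2 was taken. A probe set was tested if 3 or more arrays had it above their own 40th percentile. The test used 1 linear model of all 9 arrays in limma 3.58.1 (R 4.3.3) with a variance trend, adjusted by Benjamini-Hochberg. P-values measure the spread between these mice, whose number limits the precision. The model shares 1 variance over the groups for each probe set. Over the tested probe sets, however, the median SD of log2 signal was 0.156 in IGF1R-caPI3K, 0.261 in IGF1R-dnPI3K and 0.164 in IGF1R mice. In simulated data for IGF1R-dnPI3K minus IGF1R, on 7898 probe sets, the model recovered 10.3% of log2 changes of 0.5, 59.3% of changes of 1 and 91.8% of changes of 2. There 200 probe sets were changed and the spread was equal in all groups. In the real comparison 1066 passed and the spread was unequal, so these percentages may not hold for it. Promoters were matched by symbol.

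The members and lists were chosen with earlier results of these data known. The rule for names took every member and up to 4 passing probe sets per list and comparison. It also took the 3 probe sets of non-member genes most correlated with each member that passed. Alternatives were other scalings, treatments of low values, filters and variance models, array weights, fits of 2 groups only, the leading digits of the numbers in the titles as a block, and each array left out in turn.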

Additional observations from a re-analysis of the deposited data

How the results depend on the processing

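Counts of calls are given for IGF1R-caPI3K minus IGF1R, IGF1R-dnPI3K minus IGF1R and IGF1R-caPI3K minus IGF1R-dnPI3K, in that order. As reported there were 1, 3 and 3 members among 17, 1066 and 98 probe sets. There were 1, 3 and 3 members and 78, 1002 and 122 probe sets with quantile normalization, and 0, 2 and 3 members and 3, 1165 and 86 probe sets with a common median. There were 1, 3 and 2 members and 67, 1110 and 108 probe sets with a floor at the 40th percentile, and 1, 3 and 3 members and 13, 1108 and 108 probe sets with log2(value + 32). There were 0, 1 and 0 members and 0, 387 and 36 probe sets with no filter, and 1, 4 and 3 members and 59, 1061 and 105 probe sets with a filter at the 60th percentile. There were 0, 1 and 0 members and 7, 657 and 45 probe sets without a variance trend, and 1, 4 and 5 members and 777, 1454 and 348 probe sets with array weights. There were 1, 0 and 0 members and 699, 132 and 13 probe sets with only the 2 groups compared, and 0, 0 and 0 members and 1, 5 and 8 probe sets with the title numbers as a block. Robust variances called the same number of members. With 1 array left out the members called were 0 to 1, 0 to 5 and 0 to 6, and the probe sets 0 to 550, 73 to 1861 and 10 to 539. The causes were not tested.

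Of the 24 member differences, 19 kept their direction in all 20 alternatives and 5 turned, none of which had passed. Under the block on title numbers, IGF1R-dnPI3K minus IGF1R was 0.203 for Bag2 160962_at, 0.125 for Hspa1b and 0.741 for Dnajb1, and IGF1R-caPI3K minus IGF1R-dnPI3K was -0.440 for Dnajb1. IGF1R-dnPI3K minus IGF1R for Bag2 160962_at was 0.0367 with a common median and -0.306 to 0.00687 with 1 array left out, positive without IGF1R-dnPI3K replicate 3. For Dnajb1 it was -0.423 to 0.0273 with 1 array left out, positive without IGF1R replicate 2. Hsp90aa1 in IGF1R-caPI3K minus IGF1R was -0.0161 to 0.371, negative without IGF1R-caPI3K replicate 3. The 19 differences called among other chaperones and immediate early genes kept their direction wherever they were tested. A common median moved the median of all probe sets to 0.07 for IGF1R-caPI3K minus IGF1R and 0.08 for IGF1R-dnPI3K minus IGF1R. No paired analysis was possible because replicate numbers only follow deposit order. Signals near the background of 63.9 limit Hspb1, Dnajb3 and the dim probe sets of Hsp90aa1, Bag2 and Hspd1.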
